A study of Homo sapiens with 36 samples.

Results

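The 10 Krüppel-like factor genes described here were measured in *TXNL1* KO HEK293T cells exposed to arsenite or hydrogen peroxide. They were *KLF2*, *KLF4*, *KLF5*, *KLF6*, *KLF9*, *KLF10*, *KLF11*, *KLF13*, *KLF15* and *KLF16*, chosen by name with earlier results of these data known. All 10 were found by Ensembl identifier among the 61587 genes of the count table. HEK293T is a human embryonic kidney line. Every library came from cells in which *TXNL1*, the gene of a thioredoxin-like protein that binds the proteasome, had been disrupted. The 4 lines were made from these cells with lentiviral constructs under a CMV promoter, which held an empty vector, WT *TXNL1*, the D162R R234D mutant built to lose proteasome binding, or the SxxS mutant with serines in place of the active site cysteines. The knockout cells were grown from single sorted cells, and the number of clones behind the lines is not given in the sources used here. Each line was left untreated (labelled DMSO), given 100 µM arsenite or given 600 µM hydrogen peroxide for 6 h. With 3 replicates per group, this made 12 groups and 36 libraries. The doses and the time come from the methods of the study, since the labels give none.

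Krüppel-like factors are transcription factors that bind GC-rich and CACCC-type DNA through zinc fingers at the carboxyl end of the protein. The family falls into members that recruit acetyltransferases and often activate genes (*KLF2*, *KLF4*, *KLF5*, *KLF6*), members that recruit the SIN3A co-repressor (*KLF9*, *KLF10*, *KLF11*, *KLF13*, *KLF16*), and members that fit neither group, among them *KLF15*. Many are early-response genes whose transcripts turn over quickly after growth factors, hormones or stress.

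The 10 genes lie on 8 chromosomes and are protein-coding. By GENCODE release 44 on GRCh38 the acetyltransferase-binding members are *KLF2* at chr19:16324826-16328685 (plus strand), *KLF4* at chr9:107484852-107490482 (minus strand), *KLF5* at chr13:73054976-73077541 (plus strand) and *KLF6* at chr10:3775996-3785281 (minus strand). The SIN3A-binding members are *KLF9* at chr9:70384604-70414657 (minus strand), *KLF10* at chr8:102648784-102655725 (minus strand), *KLF11* at chr2:10042849-10054836 (plus strand), *KLF13* at chr15:31326835-31435665 (plus strand) and *KLF16* at chr19:1852399-1863579 (minus strand), and the remaining gene is *KLF15* at chr3:126342635-126357408 (minus strand).

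The libraries held 42072410 to 174119002 counts, with a median of 66016833, and all 10 genes were among the 22486 that passed the filter on low counts. Levels are given in CPM, counts brought to a common library size. *TXNL1* itself served as a check of the lines, and its level in untreated cells was 30.6 ± 1.77 CPM (SD, n = 3) in vector cells and 53.4 to 62.9 CPM as group means in the complemented lines. The HEK293T markers *VIM*, *KRT18* and *KRT8* were present in every library, while *PAX2* (0.147 to 0.838 CPM) and *NEFL* (0.575 to 3.12 CPM) were low. Of these 5 markers 3 were called higher and 1 lower with arsenite, where 37.4% of all tested genes were called higher and 31.5% lower. With hydrogen peroxide 3 were called higher, beside 6.78% of all tested genes. Of 7 markers of leukocytes, endothelium, hepatocytes, erythroid cells, muscle and basal epithelium, 0 passed the filter, and none exceeded 38 counts in any library. In these bulk libraries, a change in the share of cells that use a gene and a change in transcript per cell cannot be told apart. According to the study's methods, cells were treated in triplicate. Neither the methods nor the labels say that the triplicates were independent experiments. The p-values therefore measure the spread between these samples, which may be technical. The WT arsenite replicate 1 and WT hydrogen peroxide replicate 2 libraries stood apart from their groups over 12043 well-counted genes, with SDs of 0.51 and 0.59 on the log2 scale around the group median against 0.05 to 0.16 in the other 34 libraries. Where leaving out both changed a call of a KLF gene, this is stated with the result or in the closing section. For some WT values that these libraries moved, the value without them is also given.

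The untreated levels were compared per transcript length, in TPM, which divides the deposited counts by gene length and scales each library to the same sum. *KLF16* was the most abundant, at 60.5 to 72.7 TPM with a median of 68.7 over the 12 untreated libraries. *KLF5* followed at a median of 23.7 TPM (22.2 to 24.5). Neither range touched that of another member. *KLF9* (median 18.9 TPM), *KLF13* (16.5), *KLF11* (14.4), *KLF10* (13.1), *KLF6* (12.4) and *KLF15* (10.5) came next, and the ranges of each neighbouring pair in that order overlapped. *KLF4* lay below them at 2.32 to 3.01 TPM. *KLF2* was barely expressed, at 0.116 to 0.557 TPM and 6 to 30 counts per untreated library, so its folds are the least precise of the 10.

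Arsenite lowered 7 of the 10 KLF genes and raised 1. Averaged over the 4 lines, *KLF9*, *KLF6*, *KLF13* and *KLF15* fell to 0.28, 0.32, 0.398 and 0.488 of the untreated level, *KLF4*, *KLF2* and *KLF5* fell less, and *KLF10* rose 2.48-fold. *KLF11* and *KLF16* did not pass the test. A gene was called where edgeR's quasi-likelihood p, corrected by Benjamini-Hochberg for all 22486 tested genes, lay under 0.05. Arsenite changed much of the transcriptome. In the same comparison 31.5% of all tested genes were called lower and 37.4% higher, beside 7 and 1 of the 10 KLF genes. The KLF genes were chosen with earlier results known, so no excess over that background can be read from these counts. The median log2 fold change was -0.70 over the 10 KLF genes and 0.06 over all tested genes. All 8 calls were also made by DESeq2, and none was lost in any of the 33 alternative settings.

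**Figure D1:**
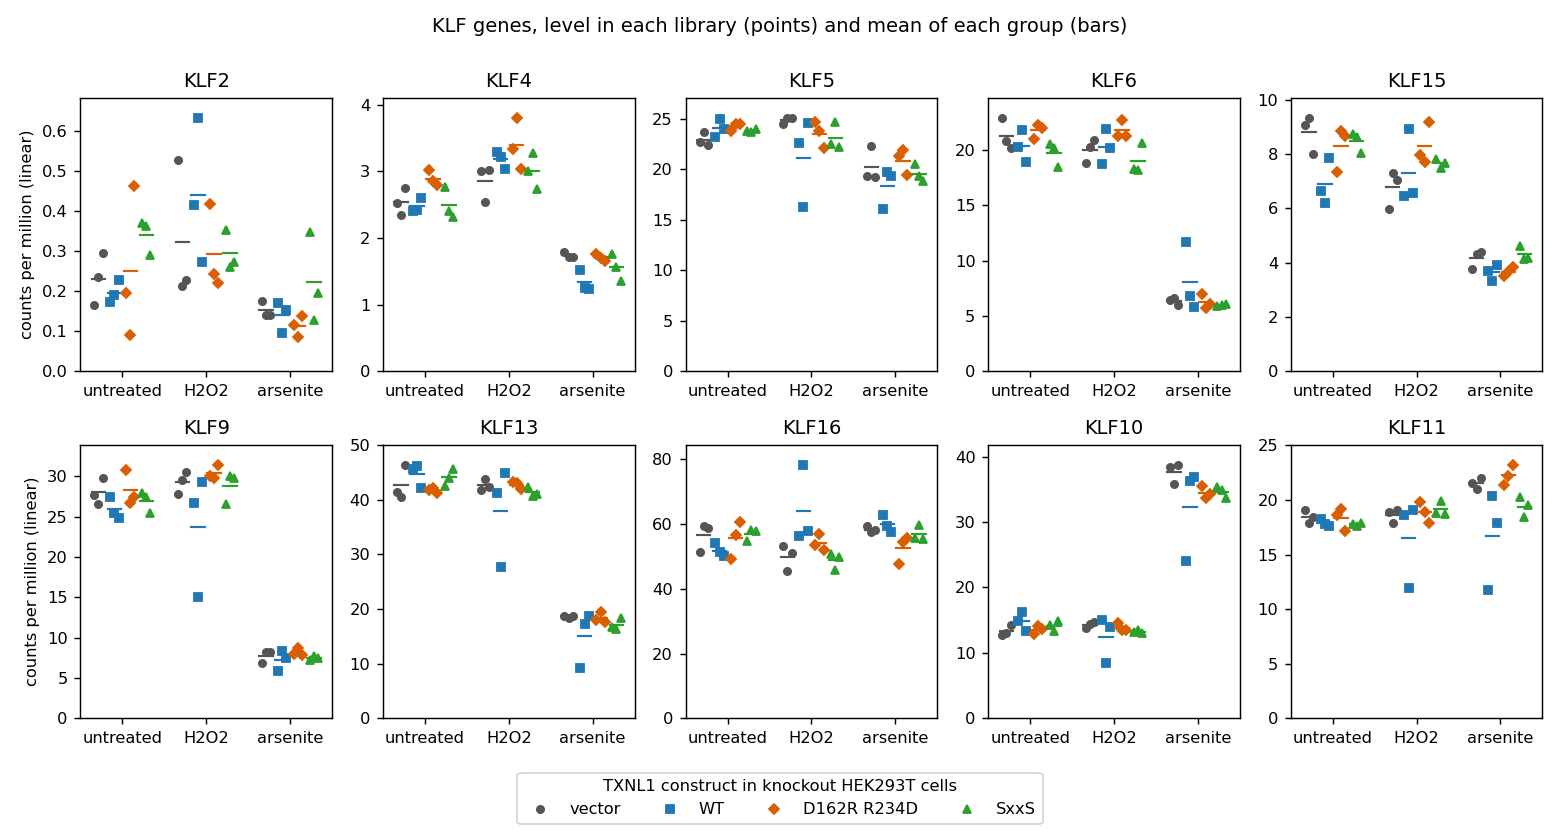
Level of each KLF gene in CPM (vertical axis, linear, from 0) in untreated, hydrogen peroxide-treated and arsenite-treated cells (horizontal axis). Points are single libraries, colours and shapes mark the 4 lines, and short bars are means of 3 replicates. For KLF10 every arsenite library (24 to 38.7 CPM) lies above every untreated one (12.7 to 16.3 CPM), and for KLF9 every arsenite library (5.84 to 8.69 CPM) lies below every untreated one (24.8 to 30.8 CPM).

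Among the members that recruit acetyltransferases, *KLF6*, a widely expressed gene induced by tissue injury, changed most. Its level ran from 18.5 to 22.9 CPM in the 12 untreated libraries, with a median of 20.6, and from 5.76 to 11.7 CPM with a median of 6.09 after arsenite. The 2 groups did not overlap, and the highest arsenite value was the outlying WT arsenite replicate 1, the other 2 WT arsenite libraries being at 5.82 and 6.8 CPM. This was a log2 fold change of -1.64 ± 0.07 (SE; adjusted p = 1.86e-18). *KLF4*, one of the reprogramming factors of pluripotency, went from 2.31 to 3.02 CPM (median 2.56) to 1.24 to 1.79 CPM (median 1.68), again without overlap. It fell by 0.72 ± 0.06 on the log2 scale (SE; adjusted p = 2.05e-12). *KLF5*, which promotes proliferation in epithelia, had a small change. It lay at 22.4 to 25 CPM (median 23.8) before and 16.1 to 22.3 CPM (median 19.3) after arsenite, and each arsenite library was below each untreated one by a narrow margin. Its log2 fold change was -0.27 ± 0.05 (SE; adjusted p = 1.6e-05). *KLF2*, known from endothelial cells under flow, went from a median of 0.231 CPM (0.0908 to 0.463) to 0.14 CPM (0.0855 to 0.347). These groups overlapped, with only 1 arsenite library below the untreated range. The log2 fold change of *KLF2* was -0.69 with a 95% interval of -1.16 to -0.22 (adjusted p = 0.00968). The endothelial markers *PECAM1* and *CDH5* did not exceed 8 counts in any library.

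*KLF15*, a regulator of glucose and amino acid metabolism that glucocorticoids induce, was at 6.2 to 9.33 CPM (median 8.33) in untreated and 3.33 to 4.62 CPM (median 3.88) in arsenite-treated libraries. The ranges were separate, and the log2 fold change was -1.03 ± 0.06 (SE; adjusted p = 6.75e-16).

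The 5 members that recruit SIN3A split. *KLF9*, a target of glucocorticoid and thyroid hormone receptors, had the largest change of the 10 genes. Its level was 24.8 to 30.8 CPM (median 27.5) in untreated and 5.84 to 8.69 CPM (median 7.77) in arsenite-treated libraries, with a wide gap between the ranges. It fell by 1.83 ± 0.07 on the log2 scale (SE; adjusted p = 2.5e-19), and only 1.12% of all tested genes had a lower value. *KLF13*, studied for its control of *CCL5* in T cells, went from 40.5 to 46.3 CPM (median 42.3) to 9.13 to 19.5 CPM (median 18.1). Its lowest value was the outlying WT arsenite replicate 1, with the other 2 WT arsenite libraries at 17.3 and 18.7 CPM, and the groups were separate with or without that library. *KLF13* fell by 1.33 ± 0.08 on the log2 scale (SE; adjusted p = 2.26e-15).

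*KLF10*, first found as an early gene induced by TGF-β, moved the opposite way. The untreated libraries held 12.7 to 16.3 CPM (median 13.9), and the arsenite libraries 24 to 38.7 CPM (median 35.4). Every arsenite library exceeded every untreated one, including WT arsenite replicate 1, which had the lowest value of the 12 against 36.2 and 36.8 CPM in its group. It rose by 1.31 ± 0.07 on the log2 scale (SE; adjusted p = 1.8e-16), and 95.9% of tested genes had a lower value. *KLF11*, its closest relative, did not share this change. It was at 17.2 to 19.2 CPM (median 17.9) before and 11.8 to 23.2 CPM (median 20.7) after arsenite, with 9 arsenite libraries above the untreated range and 1 below it. The log2 fold change of *KLF11* was 0.13, with a 95% interval of -0.01 to 0.26 (adjusted p = 0.0822). Without WT arsenite replicate 1, the lowest library, it was 0.18 and was called (adjusted p = 0.00266).

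*KLF16*, the most abundant member, was level. It lay at 49.2 to 60.7 CPM (median 55.7) in untreated and 47.8 to 62.7 CPM (median 57.6) in arsenite-treated libraries. With arsenite it had a log2 fold change of 0.05, with a 95% interval of -0.05 to 0.14 (adjusted p = 0.398). The sign depends on the scale, since the median was 57.6 CPM against 55.7 CPM but 65.9 TPM against 68.7 TPM. In GENCODE release 44, part of the exon sequence of *KLF16* (16.3%), *KLF4* (9.75%) and *KLF11* (9.06%) overlaps a gene on the opposite strand. The strand setting of the counting is not given in the sources used here, so reads of those genes could be included.

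**Figure D2:**
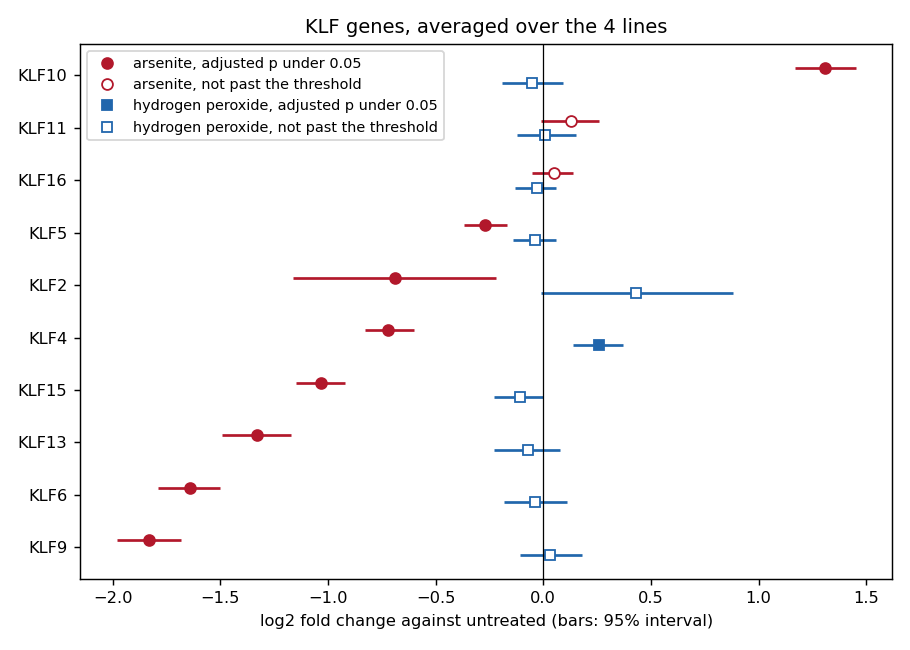
Log2 fold change against untreated cells, averaged over the 4 lines (horizontal axis, 0 marked), for each KLF gene (vertical axis). Circles are arsenite and squares hydrogen peroxide, bars are 95% intervals, and filled symbols have an adjusted p under 0.05. With arsenite 7 genes lie to the left of 0 and KLF10 to the right at 1.31, whereas with hydrogen peroxide only KLF4 (0.26) is filled.

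The sequence upstream of the start is shown for the 4 genes with the lowest arsenite folds, because KLF proteins are known to act on GC-rich promoters, including those of other family members. The bases come from RefSeq on GRCh38.p14. Each run is on the coding strand, 5′ to 3′, and ends at the base before the first transcribed base in RefSeq or GENCODE. Capitals mark the GC box GGGCGG or the CACCC box CCACCC on either strand, with overlapping boxes run together. The windows are chr9:70414658-70414907 on the minus strand for *KLF9*, chr10:3785282-3785459 on the minus strand for *KLF6*, chr15:31326585-31326834 on the plus strand for *KLF13* and chr3:126357409-126357658 on the minus strand for *KLF15*.
KLF9: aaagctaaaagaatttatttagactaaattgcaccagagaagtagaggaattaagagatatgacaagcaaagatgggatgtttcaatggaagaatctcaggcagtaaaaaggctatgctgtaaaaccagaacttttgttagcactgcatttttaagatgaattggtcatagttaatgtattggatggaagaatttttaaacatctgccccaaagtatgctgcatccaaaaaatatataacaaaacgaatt
KLF6: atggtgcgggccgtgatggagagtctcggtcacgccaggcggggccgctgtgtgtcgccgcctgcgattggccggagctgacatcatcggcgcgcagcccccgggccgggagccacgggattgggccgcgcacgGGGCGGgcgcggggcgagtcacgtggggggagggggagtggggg
KLF13: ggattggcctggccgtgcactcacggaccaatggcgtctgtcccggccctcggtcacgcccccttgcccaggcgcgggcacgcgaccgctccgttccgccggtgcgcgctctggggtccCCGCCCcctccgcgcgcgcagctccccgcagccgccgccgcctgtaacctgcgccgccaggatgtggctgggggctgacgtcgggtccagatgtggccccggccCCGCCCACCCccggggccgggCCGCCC
KLF15: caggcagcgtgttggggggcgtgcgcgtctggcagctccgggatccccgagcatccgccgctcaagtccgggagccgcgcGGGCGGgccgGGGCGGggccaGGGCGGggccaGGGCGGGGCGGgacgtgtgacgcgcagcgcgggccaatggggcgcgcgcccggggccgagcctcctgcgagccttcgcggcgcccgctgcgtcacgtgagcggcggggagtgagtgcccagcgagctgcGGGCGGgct

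These upstream regions are unlike each other. That of *KLF9* has 32.4% G and C and no box of either kind, while those of *KLF6* (76.4% G and C, 1 GC box), *KLF13* (78.8%, 3 GC boxes and 1 CACCC box) and *KLF15* (80.4%, 6 GC boxes) are GC-rich. Over windows of 300 bases around the start, RefSeq had 11 entries for 9 of the 10 genes, and 9 of these 11 held a GC box, against 45% of 35116 promoters of that length. Base composition differed too. The median over all promoters was 58.7% G and C. The windows without a GC box were that of *KLF9* (32.7%) and the *KLF5* window from base 73054726 (40.7%), and the rest lay at 69% to 86%. Whether the share with a GC box goes beyond base composition was not tested. The cAMP response element TGACGTCA was in 1 of the 11 (1.85% of all promoters), the AP-1 site TGANTCA in 0 (7.71%), the heat shock pair GAANNTTC in 0 (6.77%), the antioxidant element core TGACNNNGC in 1 (13.3%) and the metal element core TGCGCNC or TGCACNC in 5 (29.6%). A CCAAT box stood in 5 (34.6%), a CACCC box in 1 (34.3%), a TATA box TATAAA in 1 (11.5%) and a CArG box in 0 (1.29%). All were searched on both strands. *KLF10* had no entry.

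The arsenite response was then compared between the lines, to ask whether the *TXNL1* construct mattered for it. The same 6 genes were called in each line, *KLF10* higher and *KLF4*, *KLF6*, *KLF9*, *KLF13* and *KLF15* lower. *KLF5* was called lower in addition in WT (log2 fold change -0.39) and SxxS cells (-0.28), with -0.17 in vector and -0.22 in D162R R234D cells. Which lines have this call depends on the setting. It was lost in SxxS cells without SxxS arsenite replicate 2 or without replicate 3 (highest adjusted p = 0.0632). DESeq2 called *KLF5* in D162R R234D cells, and without the 2 outlying WT libraries *KLF5* and *KLF11* were called in vector and in D162R R234D cells, 8 KLF genes in each. The counts were 1 higher and 5 lower in vector cells, where 22.1% of all tested genes were called higher and 21.4% lower. They were 1 and 6 in WT cells (28.7% and 24.9% of all genes), 1 and 5 in D162R R234D cells (22.5% and 21.5%), and 1 and 6 in SxxS cells (22.1% and 21.5%).

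For the genes called in every line, the direction was the same and the sizes lay near each other in the 4 lines. The log2 fold change of *KLF9* was between -1.85 and -1.79, that of *KLF15* between -1.17 and -0.92, and that of *KLF4* between -0.88 and -0.55. *KLF10* reached 1.5 in vector, 1.34 in D162R R234D, 1.29 in SxxS and 1.12 in WT cells, or 1.30 there without the outlying WT arsenite replicate 1. *KLF6* was at -1.31 in WT cells, or -1.69 without that library, and at -1.79 to -1.72 in the others. *KLF13* was at -1.58 in WT cells, or -1.30 without that library, and at -1.36 to -1.18 in the others. Genes not called in every line varied more. With all libraries kept, *KLF11* ran from -0.11 in WT to 0.28 in D162R R234D cells. *KLF16* ran from -0.08 in D162R R234D to 0.21 in WT cells, and *KLF2* from -1.08 in D162R R234D to -0.41 in WT cells. The test of the difference between lines, an arsenite by line interaction, called 0 of the 10 KLF genes in edgeR, with 0 at an unadjusted p under 0.05 and 0 called by DESeq2. Over all tested genes it called 0%. The adjusted p-values of the 10 genes ran from 0.798 to 0.997, and a p that misses the threshold does not show that the lines respond alike.

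**Figure D3:**
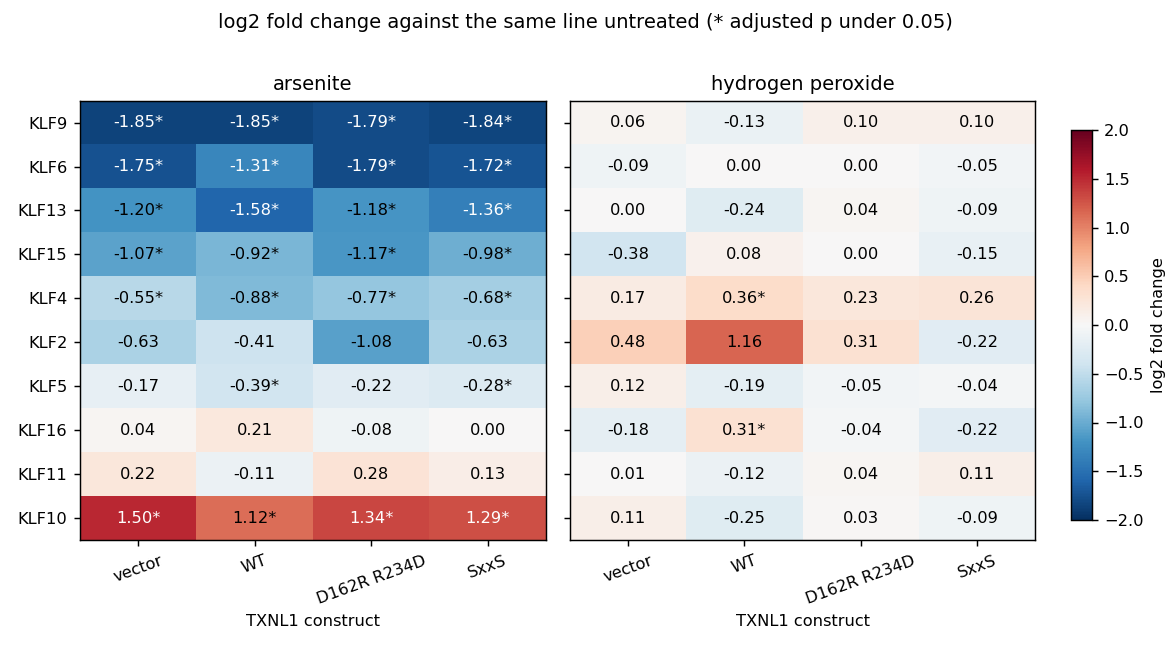
Log2 fold change of each KLF gene (rows) against the same line untreated in each of the 4 lines (columns), for arsenite on the left and hydrogen peroxide on the right. Blue is lower, red is higher, and stars mark an adjusted p under 0.05. KLF9 is at -1.85 to -1.79 under arsenite in every line, and the hydrogen peroxide panel has 2 stars, KLF4 and KLF16 in WT cells.

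Both the total of the family and its make-up differed between untreated and arsenite-treated libraries. The summed level of the 10 genes had a median of 183 TPM in untreated (167 to 187) and 154 TPM in arsenite-treated libraries (109 to 164). The lowest arsenite sum was in the outlying library. The median share of *KLF10* in the sum was 7.26% in untreated and 20.6% in arsenite-treated libraries, which moved it from rank 6 to rank 2 of the family. *KLF9* had 10.3% and 3.38%, *KLF13* 9.25% and 4.26%, *KLF6* 6.74% and 2.25%, and *KLF15* 5.98% and 3.2%. *KLF16* held the largest share under both conditions, at 37.4% and 42.8%. Shares of one sum are tied to each other, and they are given as a description with no test.

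**Figure D4:**
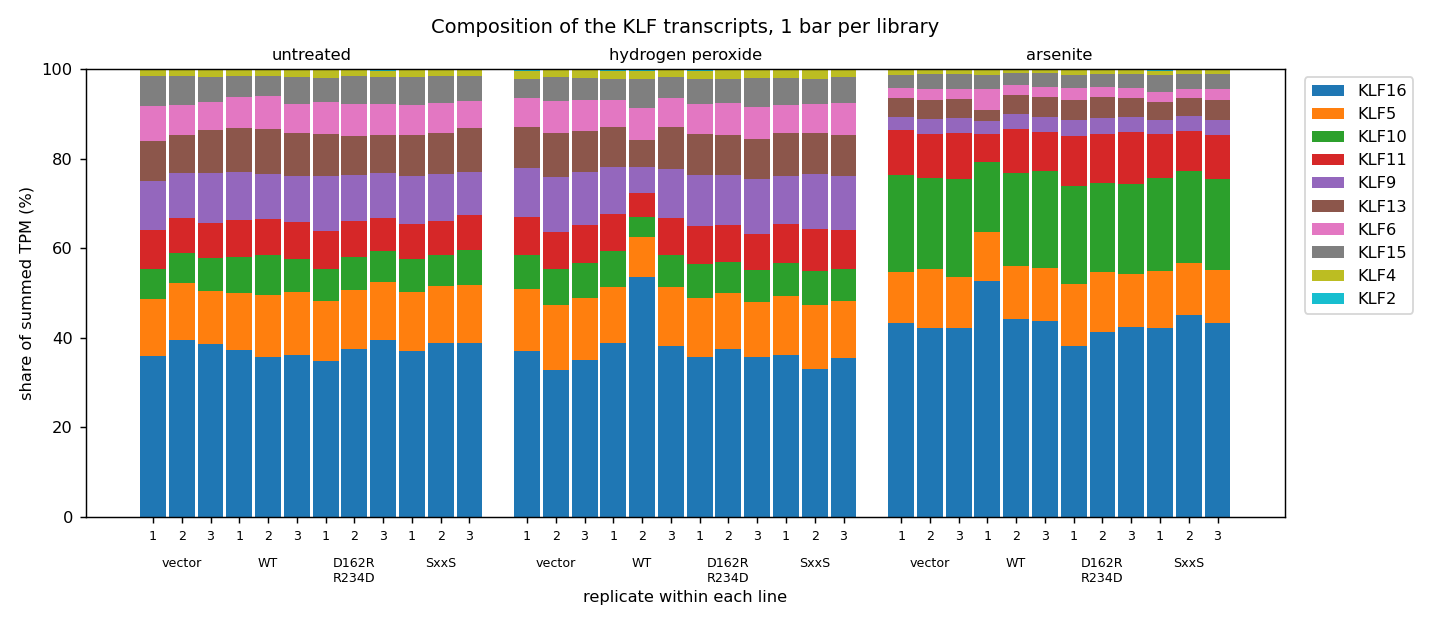
Share of each KLF gene in the summed TPM of the 10 genes (vertical axis, percent), with 1 stacked bar for each of the 36 libraries, ordered by treatment, line and replicate. The KLF10 segment has a median of 7.26% in untreated and 20.6% in arsenite libraries, and the bars of WT arsenite replicate 1 and WT hydrogen peroxide replicate 2 differ from those of their groups.

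With hydrogen peroxide, treated and untreated libraries overlapped for every KLF gene over all lines, though within single lines some genes did not overlap. The share of all tested genes that overlap in this way was not determined, so this only describes the 10 KLF genes. Averaged over the 4 lines hydrogen peroxide raised 1 of 10, *KLF4*, and lowered 0, where 6.78% of all tested genes were called higher and 5.3% lower. DESeq2 called the same gene. *KLF4* was at 2.54 to 3.8 CPM (median 3.03) in the 12 treated libraries against 2.31 to 3.02 CPM (median 2.56) in the untreated ones, with 8 treated libraries above the untreated range. Its log2 fold change was 0.26 ± 0.05 (SE; adjusted p = 0.00164), opposite in sign to its change with arsenite. *KLF2* had the largest value of the 10 at 0.43 ± 0.22 (SE) and was not called. Of the other 8 genes, none had a log2 fold change outside -0.11 to 0.03. Without the 2 outlying WT libraries *KLF9* and *KLF15* were also called, and the calls over all tested genes rose as well. The median over the 10 KLF genes was -0.04.

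Within single lines, *KLF4* and *KLF16* were called higher in WT cells, 2 of 10, beside 8.06% of all tested genes called in either direction. *KLF16* stood at 54, 51.3 and 50 CPM in untreated WT cells and at 56.4, 78.2 and 57.7 CPM after hydrogen peroxide. All 3 treated libraries were above all 3 untreated ones, and the highest was the outlying WT hydrogen peroxide replicate 2. The log2 fold change of *KLF16* was 0.31 ± 0.09 (SE; adjusted p = 0.0379) and was 0.14 without the 2 outlying libraries, when it was not called (adjusted p = 0.271). *KLF4* in WT cells had 0.36 ± 0.11 (SE; adjusted p = 0.0399), and 0.34 without those libraries (adjusted p = 0.0844). In that WT library *KLF9* was at 15.1 CPM against 26.7 and 29.3 CPM in its group, and *KLF10* at 8.43 against 14 and 15 CPM, so it departed for several members at once. What set it and WT arsenite replicate 1 apart was not tested.

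In vector, D162R R234D and SxxS cells edgeR called 0 KLF genes after hydrogen peroxide, and DESeq2 called 0 in each. At an unadjusted p under 0.05 there were 1, 1 and 2, and the shares of all tested genes called were 1.35%, 1.03% and 1.02%. *KLF15* in vector cells came nearest, at 9.07, 9.33 and 8 CPM untreated and 5.97, 7.32 and 7.03 CPM treated. These groups did not overlap, the log2 fold change was -0.38 ± 0.11 (SE; adjusted p = 0.106), and it was called without the 2 outlying WT libraries (-0.39, adjusted p = 0.00637). In SxxS cells *KLF16* had a log2 fold change of -0.22 ± 0.09 (SE; adjusted p = 0.377), which was also called without those libraries (adjusted p = 0.0279). Leaving out those libraries raised the calls over all tested genes too, from 303 to 2219 in vector, from 231 to 2328 in D162R R234D and from 229 to 1475 in SxxS cells. The hydrogen peroxide by line interaction called 0 of 10 KLF genes in edgeR, with 2 at an unadjusted p under 0.05, and 0.685% of all tested genes. *KLF16* had the lowest adjusted p of the 10 in that test (0.117), and DESeq2 called it, 1 gene of 10. The DESeq2 call was made with all libraries kept. Among them was the outlying WT hydrogen peroxide replicate 2, with *KLF16* at 78.2 CPM against 56.4 and 57.7 CPM in its group.

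The 2 oxidants were also set against each other directly. This comparison does not use the untreated libraries. Arsenite was given only at 100 µM and hydrogen peroxide only at 600 µM, so agent and dose cannot be told apart. Arsenite-treated cells had 7 KLF genes lower and 1 higher than hydrogen peroxide-treated cells, beside 31.3% and 37.3% of all tested genes. The log2 difference was 1.37 for *KLF10*, -1.26 for *KLF13*, -0.97 ± 0.06 for *KLF4* (SE; adjusted p = 1.23e-15) and -0.92 ± 0.06 for *KLF15* (SE; adjusted p = 9.3e-15). *KLF16*, at 0.08 with a 95% interval of -0.02 to 0.17, was not called, nor was *KLF11* at 0.12, and both were called without the 2 outlying WT libraries (adjusted p = 0.0106 for *KLF16* and 0.00141 for *KLF11*). The separate comparisons with untreated cells share the untreated libraries, and no overlap between them is given.

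Without oxidant and with all libraries kept, no KLF gene was called between a complemented line and vector cells. A p that misses the threshold does not show that the levels were equal. WT against vector cells gave 0 calls of 10 (0.196% of all tested genes), with 1 at an unadjusted p under 0.05. D162R R234D against vector gave 0 (0.0267%) and SxxS against vector 0 (0.0178%), each with 0 at an unadjusted p under 0.05, and DESeq2 called 0 in all 3. The gene nearest to a call was *KLF15*, at 6.64, 6.2 and 7.87 CPM in WT against 9.07, 9.33 and 8 CPM in vector cells. The groups did not overlap, and the log2 difference was -0.35 ± 0.11 (SE; adjusted p = 0.31). It was called without the outlying libraries, which belong to other groups but enter the estimate of the spread (-0.34, adjusted p = 0.0373). The calls over all tested genes then rose from 44 to 673.

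The rest of the KLF and SP family was examined next, the SP proteins being the nearest relatives with the same DNA-binding fingers. Of 8 other KLF genes 4 were tested, with a median log2 fold change of 0 under arsenite. With arsenite *KLF14* was higher (log2 fold change 0.45 ± 0.16, adjusted p = 0.0172) and *KLF7* lower (-0.25 ± 0.06, adjusted p = 0.000649). Of 9 SP genes 8 were tested, and arsenite lowered 5 and raised 2, with a median log2 fold change of -0.50, beside 31.5% of all tested genes called lower and 37.4% higher. *SP8* and *SP9*, developmental factors of limb and forebrain, had log2 fold changes of -2.30 ± 0.08 (adjusted p = 3.44e-20) and -1.79 ± 0.05 (adjusted p = 7e-23), *SP4* of -0.92 ± 0.12 (adjusted p = 1.22e-07), and *SP6* of 1.10 ± 0.13 (adjusted p = 1.28e-08). *SP8* went from 4.39 to 5.38 CPM in untreated to 0.706 to 1.25 CPM in arsenite-treated libraries, without overlap. In GENCODE release 44, 63.4% of the exon bases of *SP9* overlap a gene on the opposite strand. With hydrogen peroxide 0 of the 4 other KLF genes and 1 of the 8 SP genes, *SP5*, were called, the latter higher, beside 6.78% of all tested genes. At an unadjusted p under 0.05 there were 0 and 2.

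Genes that act on KLF expression or protein were counted next, with arsenite at a background of 37.4% of all tested genes called higher and 31.5% lower. The MAP3K3, MAP2K5, MAPK7 and MEF2 cascade drives *KLF2* and *KLF4* in endothelium. Of its 7 genes 4 were higher, among them *MEF2D* (0.71 ± 0.04) and *MEF2B* (0.42 ± 0.06), and 1 was lower, *MAPK7* (-0.79 ± 0.04), all log2 fold changes with the SE. The median of the 7 was 0.26. Exons of *MEF2B* overlap *BORCS8* and a *BORCS8* readthrough gene on the same strand over 76.8% of their bases, so its count may hold reads of those genes. In the receptor and SMAD group, which holds the TGF-β pathway upstream of *KLF10* and *KLF11* and the glucocorticoid receptor upstream of *KLF9* and *KLF15*, 0 of 8 rose and 4 fell, with a median of -0.25. *TGFBR2* fell by 1.75 ± 0.08, *TGFBR1* by 1.06 ± 0.07, *SMAD3* by 0.91 ± 0.07 and *SMAD7* by 0.41 ± 0.04 on the log2 scale. The glucocorticoid receptor gene *NR3C1* had -0.02 ± 0.10 and was not called.

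Partners and ligases were read against the same background. Of 6 co-repressor genes 3 were higher and 3 lower, with *SIN3A*, which binds *KLF9*, *KLF10*, *KLF11*, *KLF13* and *KLF16*, at -0.97 ± 0.07 and *CTBP2* at 0.37 ± 0.02 on the log2 scale and a median of -0.10. Of 3 acetyltransferase genes 0 rose and 2 fell, *EP300* (-0.39 ± 0.15) and *KAT2B* (-0.21 ± 0.09), and the median was -0.21. Of 5 ubiquitin ligase genes that act on KLF proteins 1 rose, *SMURF1* (0.16 ± 0.05), and 4 fell, with *VHL* at -1.15 ± 0.04, *WWP1* at -0.76 ± 0.07 and *FBXW7* at -0.74 ± 0.04, and a median of -0.74. Genes on the opposite strand overlap 34.2% of the exon bases of *CTBP2* and 23.5% of those of *VHL*. With hydrogen peroxide these 5 lists gave few calls, namely 0 of 7 kinase and MEF2 genes, 2 of 8 receptor and SMAD genes, 0 of 6 co-repressors, 0 of 3 acetyltransferases and 1 of 5 ligases, all higher where called, beside 6.78% of all tested genes higher and 5.3% lower. At an unadjusted p under 0.05 the counts were 1, 2, 1, 0 and 2.

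Of 10 textbook targets of KLF proteins 8 were tested. Arsenite raised 3 and lowered 4, with a median log2 fold change of 0.01, beside 37.4% and 31.5% of all tested genes. *S1PR1*, a sphingosine phosphate receptor under *KLF2*, went from 3.17 to 4.47 CPM to 1.13 to 1.68 CPM, and its log2 fold change was -1.45 ± 0.07 (adjusted p = 1.53e-17). *NOS3*, the endothelial nitric oxide synthase and another *KLF2* target, had 1.40 ± 0.25 (adjusted p = 1.73e-05) at 2 to 18 counts per untreated and 14 to 65 per arsenite library. A gene on the opposite strand, *ATG9B*, overlaps 13.3% of the exon bases of *NOS3*, so its low counts may hold reads of that gene. Of these 2 targets of *KLF2* one was lower and the other higher. *CDKN1A*, the cell cycle inhibitor p21 and a target of *KLF4* and *KLF6*, rose by 0.87 ± 0.06 (adjusted p = 4.51e-13), and *SLC2A4*, the glucose transporter linked to *KLF15*, fell by 0.68 ± 0.06 on the log2 scale (adjusted p = 9.3e-12). With hydrogen peroxide 5 of the 8 were higher and 0 lower, beside 6.78% and 5.3% of all tested genes, with a median of 0.21 against 0.005 over all tested genes. This list too was chosen with earlier results known, so no excess over the background can be read from its counts or medians. *CDKN1A* had 0.98 ± 0.06 (adjusted p = 4.86e-12), *PDGFA* 0.52 ± 0.12 (adjusted p = 0.00373) and *S1PR1* 0.24 ± 0.06 (adjusted p = 0.0114), so *S1PR1* was higher with one oxidant and lower with the other. The direct comparison of arsenite with hydrogen peroxide gave -1.70 ± 0.07 for *S1PR1* (adjusted p = 2.94e-19) and -0.11 ± 0.06 for *CDKN1A* (adjusted p = 0.112).

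**Figure D5:**
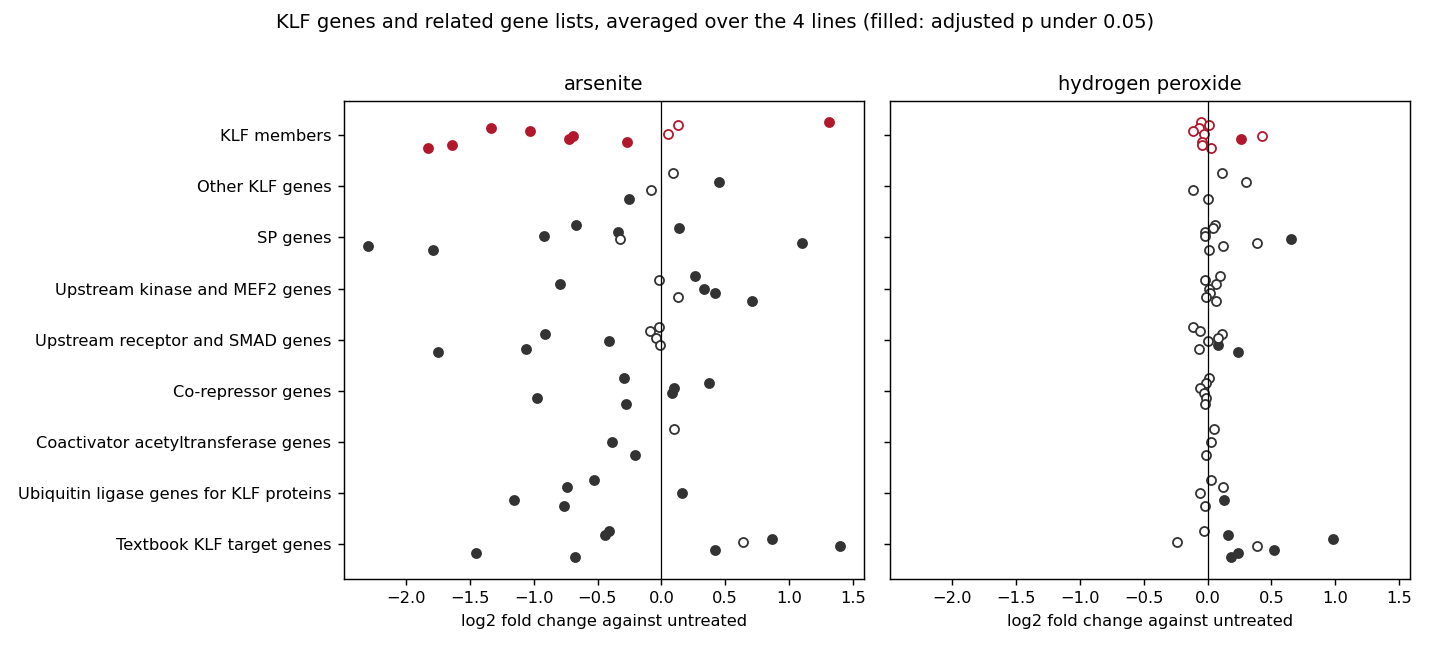
Log2 fold change against untreated cells, averaged over the 4 lines (horizontal axis), of the 10 KLF genes (red) and the tested genes of 8 related lists (black), with arsenite on the left and hydrogen peroxide on the right. Each point is a gene, and filled points have an adjusted p under 0.05. The arsenite panel spreads from SP8 at -2.30 to NOS3 at 1.40, and in the hydrogen peroxide panel CDKN1A at 0.98 lies farthest from 0.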

How the data were processed

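The authors deposited raw counts of reads per gene, with gene lengths, for all 36 libraries in one table, with no normalization and replicates not pooled. According to the study's methods, mRNA libraries were sequenced in pairs by DNBseq and aligned to GRCh38 with qAlign. The annotation, strand and treatment of mates in counting are not given in the sources used here. In the table, counts of 4, 6 and 8 occurred more often than 3, 5 and 7 (31272 against 28087 times for 4 and 3). The count 2 did not exceed 1 (68757 against 72688). Whether mates were counted singly was not tested, so counts may overstate the number of sequenced fragments. The submitters' processing notes also name DESeq2.

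Counts were analysed with edgeR 4.0.16 (R 4.3.3, limma 3.58.1), with TMM scaling, a mean for each of the 12 groups and robust quasi-likelihood dispersions. Tested were the 22486 genes whose 3 untreated vector libraries summed to 10 or more counts, as in the study. DESeq2 1.42.0, which the study used, was an alternative. CPM used TMM-scaled library sizes and TPM the deposited lengths, which for all 10 KLF genes equal their exon bases in GENCODE release 44. Lines and treatments came from the labels, and 0 columns of sample values were left unmatched. The members, gene lists and tests were chosen with earlier results of these data known. All 10 KLF genes are named, and for other lists up to 4 called genes with the largest arsenite change, besides genes named for contrast after their values were seen. On simulated data for arsenite in vector cells, 92.5% of 200 genes changed by 1 on the log2 scale were recovered among 22486. For the arsenite by line interaction it was 83.5%. The changed genes were drawn from the better-counted ones and no library was simulated as outlying, so these shares may not hold for the real data. No replicate pair agreed within sampling noise. The deviations of samples of equal replicate number all had a correlation over 0.1 in 1 of 11 group pairs, D162R R234D hydrogen peroxide against untreated.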

Additional observations from a re-analysis of the deposited data

How the results depend on the processing

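The arsenite calls averaged over the lines held in all 33 alternatives, with 8 KLF genes called, or 9 with *KLF11* added, without the 2 outlying WT libraries (adjusted p = 4.77e-06) or without WT arsenite replicate 1 alone (adjusted p = 0.00266). Within lines, the arsenite count ran from 6 to 8 in vector and D162R R234D cells, from 6 to 7 in SxxS cells and was 7 in WT cells over the alternatives. The hydrogen peroxide counts did depend on the processing. In WT cells 2 KLF genes were called, 1 with scaling to total counts, and 0 with no filter, without both outlying WT libraries or with other groups left out of the model, and leaving out 1 replicate at a time gave 0 to 4. Averaged over the lines 1 was called, 3 without both outlying libraries (*KLF4*, *KLF9*, *KLF15*), and 1 to 2 with 1 replicate left out. The count was 2 without D162R R234D untreated replicate 3 or without WT hydrogen peroxide replicate 2. Vector and SxxS cells gave 0, and 1 each without both outlying libraries or with other groups left out. WT against vector gave 0, and 1 without both outlying libraries. The hydrogen peroxide by line interaction gave 0, 1 with the DESeq2 test, and 0 to 1 with 1 replicate left out. The cause was not tested. No direction of a called gene reversed. Without both outlying libraries the hydrogen peroxide calls over all genes went from 2716 to 6430. Arsenite split all calls into 8402 higher and 7075 lower with TMM, and 7671 and 7594 with total counts. With the replicate block 8 KLF genes were called for arsenite and 1 for hydrogen peroxide, and no other KLF count changed. Of 33 pairs of equal number 10 had a correlation over 0.1, and 14 samples correlated best with their own number. In 1 of 11 group pairs, D162R R234D hydrogen peroxide against untreated, all 3 were over 0.1 (0.53, 0.25 and 0.51), and there the replicate block also gave 0 KLF genes. The other 10 did not meet this rule, which does not show that their samples were unpaired. In D162R R234D arsenite against untreated, all 3 samples correlated best with their own number (0.21, 0.09 and 0.11). At 4 to 62 counts per library *KLF2* can show only large changes.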
